A study of Mus musculus with 35 samples.

Results

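Interferon-stimulated genes were described across mouse cells undergoing reprogramming by infection with transcription factor combinations. The set was a list of 43 gene symbols, made up of antiviral effectors, RNA sensors, and STAT and IRF transcription factors. The symbols were matched to the row names of the expression table without the use of any measured value. The list itself was chosen with earlier results of these data known. Of the 43, 42 were found among the 21350 genes of the table (Mx2 was not analysed here), and 41 passed the filter on low values. The remaining gene, the chemokine Cxcl10, did not exceed 9 in any library.

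Type I interferons bind a cell surface receptor made of Ifnar1 and Ifnar2, whose Janus kinases phosphorylate STAT proteins, Stat2 among them. The phosphorylated STATs join Irf9 in a complex that binds the interferon-stimulated response element in the promoters of genes that restrict viruses. Several of the genes so induced, among them the RNA sensors, Irf7 and Stat2, feed back into the sensing of foreign RNA and the response to interferon. Fibroblasts are known to respond readily to interferon, and pluripotent stem cells only weakly.

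Cells were infected with combinations labelled ODR, OA, OB, ODDR and ODB, names that the labels do not expand, and grown in the reprogramming medium iCD1. The series concerns reprogramming with Oct4 and Kdm2b, a subunit of a variant Polycomb repressive complex. Without BMP4, days 1, 6 and 14 were sampled for ODR, OA and OB. ODR and OB were also sampled at day 6 with BMP4, a bone morphogenetic protein given at 10 ng/ml from the change to iCD1 on, and day 9 samples of ODDR and ODB exist in both conditions. A library of mouse embryonic stem cells (mESC) and 1 of mouse embryonic fibroblasts (MEF) bring the total to 35. The labels give no strain, animal or clone for any group. The comparisons ask how the factor combinations differ at each day, how each changes with time, and how BMP4 changes ODR and OB.

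The values are normalized tag count scores per gene, which are whole numbers with a common ceiling of 18690 and library totals of 4255921 to 4398785. They are not read counts, so the depth behind a value is unknown, and they are not per gene length, so levels are compared between libraries and not between genes. There were 2 pairs of identical columns. The column labelled ODR day 6 replicate 3 is also labelled replicate 2 of ODR with BMP4, and it was left out of both groups, so that 2 ODR libraries remained without BMP4 and 1 with it. ODDR and ODB with BMP4 at day 9 are also 1 column, which entered no test. The label check was Kdm2b, at 4220 or more in every OB library and at most 460 in ODR and OA, and Kdm2a, at 9294 or more in every OA library except the library labelled OA day 14 replicate 2, where it was 721. Pou5f1, which encodes Oct4, was at the ceiling in all but 1 of the infected libraries. The mESC library held the stem cell factor Nanog at 2802, while no day 14 library exceeded 6. The tests used 27 libraries: 2 of each combination at day 1, 2 ODR, 3 OA and 4 OB at day 6, 3 of each at day 14, and, with BMP4, 1 of ODR and 2 of OB. Nothing in the labels says whether replicates came from separate cultures, so the spread that p-values rest on may be technical only.

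Promoter sequence is shown for 6 members because the interferon-stimulated response element is the element through which the phosphorylated STATs and Irf9 act on these genes. The 6 are the members with the largest change between OB and ODR at day 14, among those called in that comparison, that hold the core of the element upstream of their start. The core searched was GAAA, NN (any 2 bases) and GAAA in a row, which reads TTTC, NN and TTTC on the other strand, in the 250 bases before the RefSeq start (GRCm38.p6). It was the only motif searched, and its matches may overlap each other. Each sequence reads 5′ to 3′ along the gene's strand, and the capitals mark the matches.

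Isg15, chr4:156200835-156200936 (minus strand): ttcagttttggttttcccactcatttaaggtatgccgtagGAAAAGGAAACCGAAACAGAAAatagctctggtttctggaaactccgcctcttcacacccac
Ifit1, chr19:34640745-34640853 (plus strand): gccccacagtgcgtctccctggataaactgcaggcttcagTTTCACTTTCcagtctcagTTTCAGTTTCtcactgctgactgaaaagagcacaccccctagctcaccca
Bst2, chr8:71537547-71537642 (minus strand): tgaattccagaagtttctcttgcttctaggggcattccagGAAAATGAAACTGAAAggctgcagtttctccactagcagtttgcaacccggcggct
Gbp2, chr3:142620564-142620653 (plus strand): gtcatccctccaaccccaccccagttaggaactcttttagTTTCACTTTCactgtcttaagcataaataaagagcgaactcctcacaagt
Oas1a, chr5:120907526-120907585 (minus strand): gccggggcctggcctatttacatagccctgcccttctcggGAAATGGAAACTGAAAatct
Trim30a, chr7:104465194-104465269 (minus strand): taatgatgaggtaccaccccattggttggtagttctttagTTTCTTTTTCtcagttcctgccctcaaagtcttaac

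The printed stretch of Isg15, which encodes a ubiquitin-like protein, holds 3 overlapping matches between 78 and 56 bases before the start. Those of Ifit1, Bst2 and Oas1a hold 2 matches each, and those of Gbp2 and Trim30a 1. Among the 33 members with a promoter entry, 13 (39.4%) held a match, beside 936 of the 27025 genes with an entry (3.46%). The other 7 were Ifit3, Oas1g, Gbp3, Stat2, Oas3, Rsad2 and Cxcl10. A match describes the letters of the window and does not show a site in use. Of the 12 tested members with a match, 8 were called lower in OB than in ODR at day 14, and of the 20 tested members with an entry and no match, 15 were.

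Without BMP4, levels of the set were high in ODR and OA cells at day 6, intermediate in OB at day 6 and low in OB at days 1 and 14. For each library the value was taken relative to the mean of the gene over the 27 fitted libraries, on the log2(value + 1) scale, and the median over the 41 tested members was computed. In the ODR libraries of day 6 this median was 0.70 and 1.24, and in the shared column, which was not fitted, it was 0.46. OA at day 6 gave 0.75, 0.52 and 0.63, and OB at day 6 gave -0.03, 0.17, 0.04 and -0.10. Thus, without BMP4, each ODR and OA library of day 6 lay above every OB library of that day.

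At day 14 the medians were 0.07, 0.43 and 0.60 in ODR, -0.05, 0.18 and 0.38 in OA, and -1.35, -0.96 and -1.20 in OB. ODR and OA overlapped and OB lay well below both. At day 1 they were -0.22 and -0.74 in ODR, 0.42 and -0.29 in OA, and -0.75 and -1.01 in OB, so that OA and ODR overlapped and the lower ODR library stood beside the higher OB library. With BMP4 at day 6, the ODR library stood at -0.43 and the OB libraries at 0.36 and 0.80. Since these are bulk libraries, fewer cells expressing a gene and less RNA per cell cannot be told apart.

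**Figure D1:**
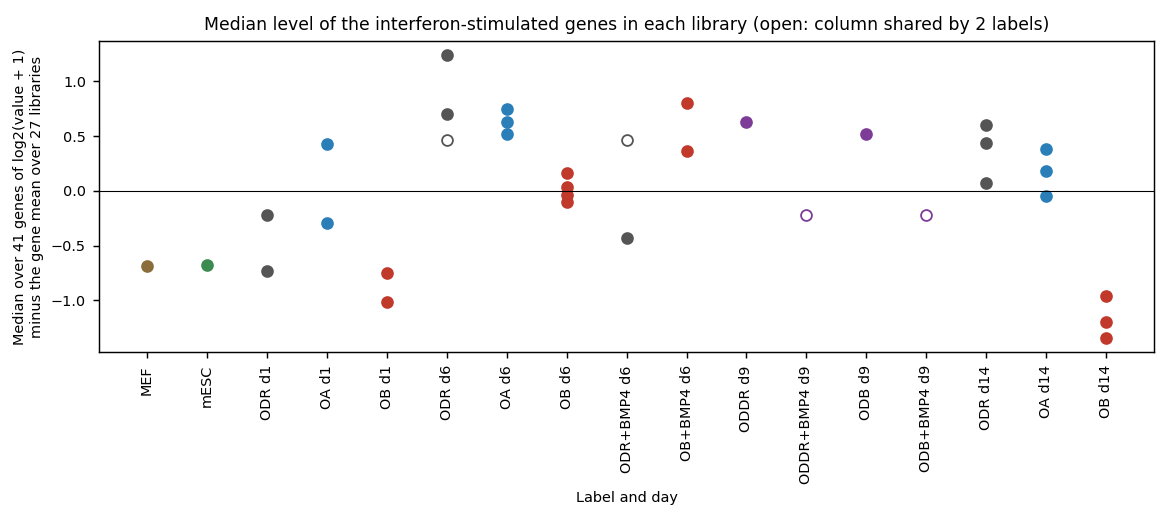
Median over the 41 tested interferon-stimulated genes of log2(value + 1) minus the gene's mean over the 27 fitted libraries (vertical axis), for each of the 35 columns (points) by label and day (horizontal axis). Open circles are columns shared by 2 labels; the 3 OB libraries of day 14 lie between -1.35 and -0.96 and OB day 1 replicate 2 at -1.01, while ODR day 6 replicate 2 is the highest at 1.24.

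Counts of members gave a similar picture. In ODR day 6 replicate 2, 41 of 41 members stood above their mean over the fitted libraries, while the 3 OB libraries of day 14 had 2, 2 and 1 such members. ODR at day 6, with 2 fitted libraries, had the highest group mean for 20 of the 41 members (48.8%), beside 6.05% of all genes tested. OB at day 14 had the lowest for 24 members (58.5%), beside 23.1% of all genes, and OB at day 1 had it for another 11 (26.8%, beside 6.43%). OB with BMP4 at day 6, with 2 libraries, had the highest mean for 9 members (22%, beside 10.3% of all genes). Among them were Oas1a, Ifit3, Usp18, Trim25 and Rsad2.

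**Figure D2:**
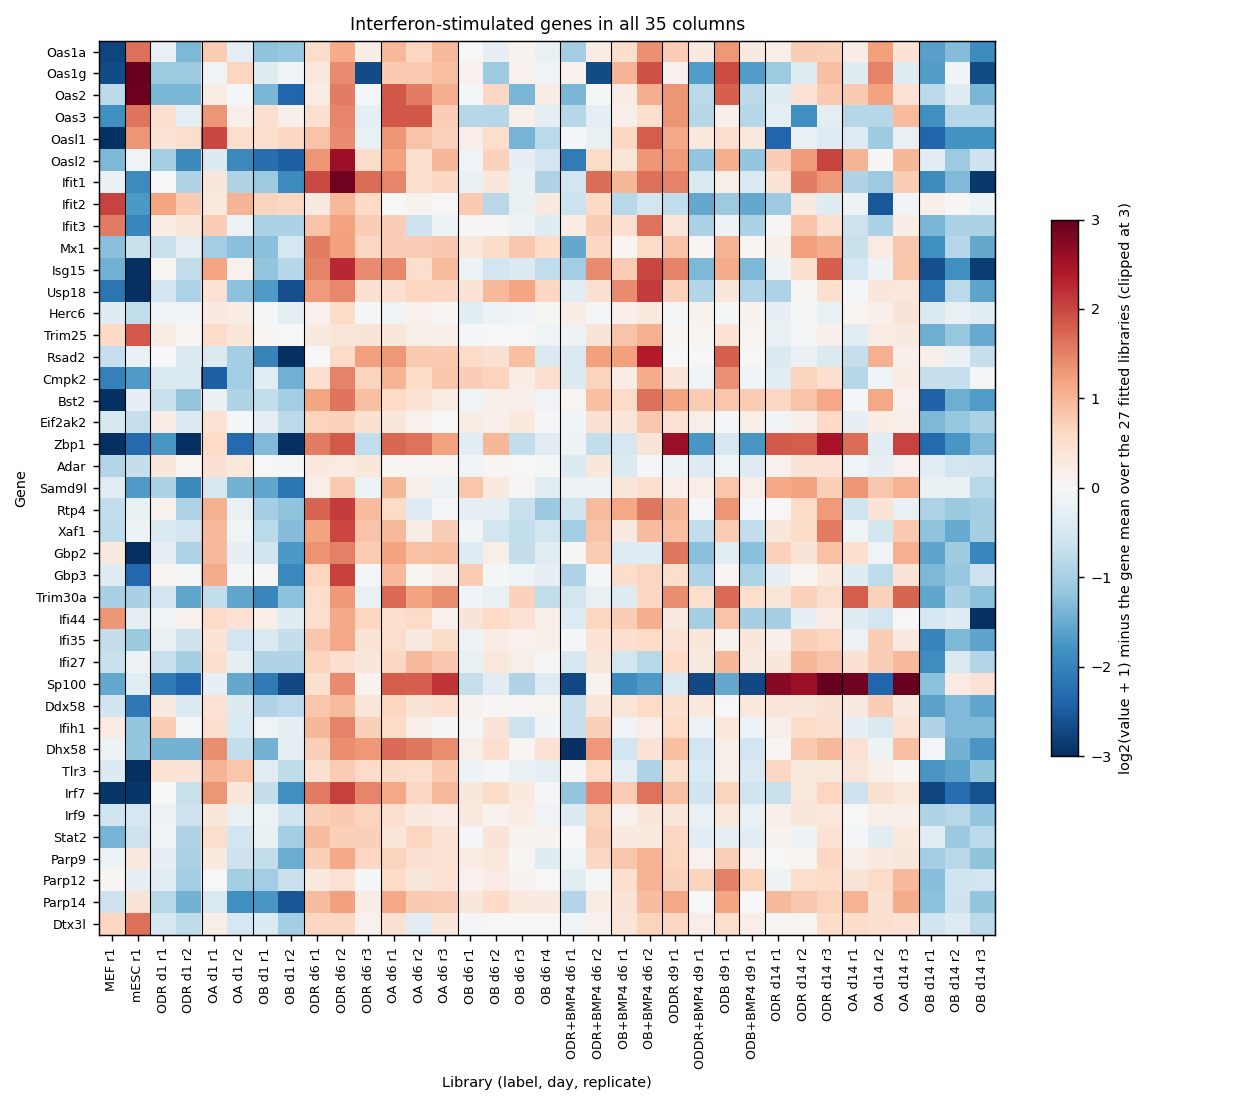
Each of the 41 tested genes (rows) in each of the 35 columns (label, day and replicate), coloured by log2(value + 1) minus the gene's mean over the 27 fitted libraries and clipped at 3. Red columns are frequent at day 6 in ODR and OA, and the 3 OB columns of day 14 are blue for nearly all rows.

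Between OB and ODR at day 14, 31 of the 41 members were lower in OB and 0 higher, where limma called 26.7% of all genes tested lower and 28.0% higher. A gene was called where its limma p, adjusted over the whole table by the Benjamini-Hochberg method, was under 0.05. The median log2 fold change was -1.56 over the members and 0.01 over all genes. All 4 RNA sensors, all 3 transcription factors, all 4 PARP family genes and partner, 12 of 16 other antiviral effectors, 3 of 4 genes of the ISG15 system, 3 of 4 IFIT and MX effectors and 2 of 6 oligoadenylate synthetases were lower. Log2 fold changes below are given ± SE from the fit, with 3 libraries in each group at this day.

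Among the sensors, Ddx58 (mm10 chromosome 4, 40203773 to 40239828, as all gene positions here), which encodes the cytoplasmic RNA helicase RIG-I, was 524, 514 and 557 in ODR and 134, 162 and 137 in OB. It fell by 1.88 ± 0.19 (limma adjusted p = 3.37e-07). Tlr3 (chromosome 8, 45395665 to 45411080), the endosomal receptor for double-stranded RNA, went from 98, 77 and 79 in ODR to 18, 20 and 27 in OB, a change of -1.93 ± 0.17 (limma adjusted p = 8.71e-08). In neither gene did a library of OB reach the lowest ODR value.

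Ifih1 encodes MDA5, a helicase that senses long double-stranded RNA, and stood at 64, 83 and 79 in ODR and at 30, 22 and 22 in OB (-1.58 ± 0.30, limma adjusted p = 0.000214). Dhx58 encodes LGP2, a relative of both that modulates their signalling, and was 13, 22 and 25 against 12, 4 and 3 (-1.67 ± 0.49, limma adjusted p = 0.00805). Its highest OB library came within 1 of the lowest ODR library, whereas the groups of Ifih1 were well apart.

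The transcription factors were lower as well. Irf7 (chromosome 7, 141262706 to 141266481), which drives interferon genes, was 42, 84 and 105 in ODR and 9, 13 and 10 in OB, a change of -2.66 ± 0.39 (limma adjusted p = 1.49e-05). Irf9 (chromosome 14, 55603571 to 55610030), the DNA-binding partner of the STATs, fell from 270, 303 and 298 to 126, 134 and 106 (-1.25 ± 0.16, limma adjusted p = 4.02e-06). The ODR libraries of Irf7 differed from each other more than those of Irf9, and in both genes every OB library was below every ODR library. Stat2, at 400, 334 and 496 in ODR and 290, 171 and 214 in OB, changed by -0.88 ± 0.29 (limma adjusted p = 0.0146). Its call was lost without ODR replicate 3 and without OB replicate 2 (limma adjusted p = 0.0666 and 0.0740).

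Trim25 (chromosome 11, 88999376 to 89020293), a ubiquitin ligase that acts on RIG-I, was 318, 354 and 410 in ODR and 134, 168 and 130 in OB (-1.32 ± 0.14, limma adjusted p = 5.13e-07). Isg15 itself was 38, 59 and 148 in ODR and 6, 11 and 5 in OB and was called lower. So was Usp18, the protease that removes Isg15 from proteins, at 35, 71 and 95 against 15, 38 and 22, although its highest OB library exceeded its lowest ODR library. Herc6, the main ligase that attaches Isg15 in the mouse, was not called, at 101, 116 and 104 against 89, 104 and 96.

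The other effectors included Bst2 (chromosome 8, 71534255 to 71537456), which tethers budding virions to the cell surface. It was 428, 510 and 622 in ODR and 51, 101 and 87 in OB, a fall by 2.73 ± 0.32 (limma adjusted p = 1.66e-06). Ifi35 (chromosome 11, 101448407 to 101458698) went from 109, 162 and 154 to 24, 38 and 32 (-2.14 ± 0.25, limma adjusted p = 1.49e-06). Adar (chromosome 3, 89715022 to 89753446), which edits adenosine in double-stranded RNA, changed less, from 646, 772 and 799 to 472, 395 and 393 (-0.81 ± 0.12, limma adjusted p = 2.2e-05). For all 3 genes the groups did not overlap.

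Larger but less precise changes were found in members with low values in OB. Zbp1, a sensor of Z-form nucleic acids, was 35, 34 and 54 in ODR and 1, 2 and 3 in OB. Sp100, a component of nuclear bodies, was 172, 154 and 267 against 10, 30 and 34. Ifit1, which binds viral RNA that lacks cap methylation, was 19, 42 and 36 against 3, 5 and 1. All 3 were called lower with no overlap, and at such values a difference of 1 is a large share of the OB level.

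Mx1, Gbp2, Oas1a, Xaf1, Oasl2, Parp14, Ifi27 and Trim30a were also called lower, with log2 fold changes from -2.24 for Mx1 to -1.78 for Trim30a. Mx1, an antiviral GTPase, was 15, 33 and 30 against 3, 7 and 4. Gbp2, an interferon-inducible GTPase, was 100, 81 and 114 against 20, 29 and 15. Oas1a, which makes the messenger that activates RNase L, was 92, 134 and 132 against 25, 32 and 21. No OB library of these 3 reached an ODR library. Oas1a and its near-identical neighbour Oas1g on chromosome 5 may share reads, so that their separate values are uncertain, and the same holds more weakly for other multigene families of the set. Parp9 and Dtx3l, a mono-ADP-ribosyltransferase and its ubiquitin ligase partner, overlap on opposite strands of chromosome 16. The sources used here do not give whether the counting used strand, so their reads cannot be told apart in the overlap.

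The 10 members not called were Oas1g, Oas2, Oas3, Oasl1, Ifit2, Herc6, Rsad2, Cmpk2, Gbp3 and Ifi44. Rsad2, which encodes the antiviral enzyme viperin, was 5, 6 and 5 in ODR and 8, 6 and 4 in OB. Ifit2, a relative of Ifit1, was 10, 27 and 17 against 25, 23 and 20. These were the only members with a fold change above 0 at day 14, and the libraries overlapped in both.

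**Figure D3:**
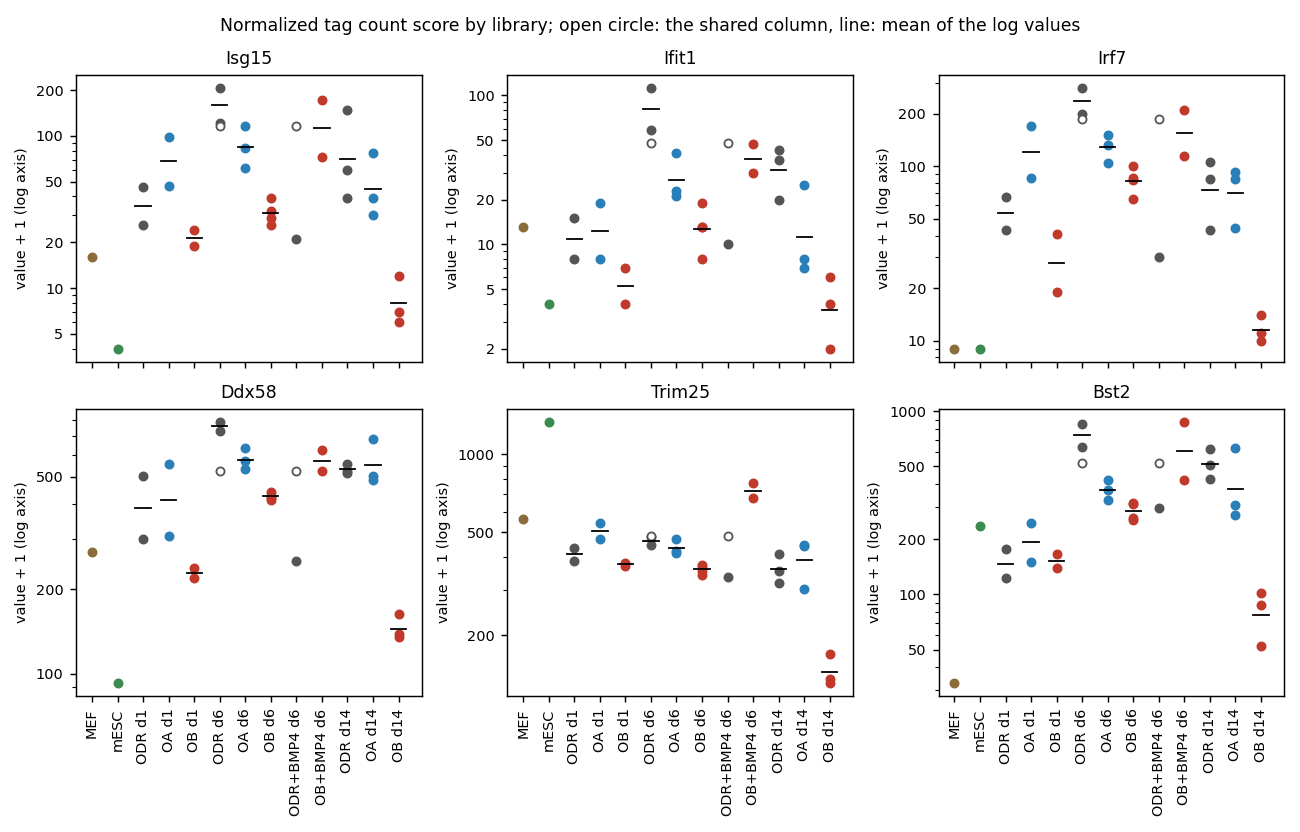
Value + 1 on a log axis (vertical) for 6 genes in each library (points) by label and day (horizontal axis). The open circle is the column shared by ODR day 6 with and without BMP4, and lines are means of the log values of the fitted libraries; OB at day 14 is below ODR and OA of that day in all 6 panels. The 6 genes were chosen after their values were seen.

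Some markers of cell state differed between the same libraries, in a comparison where 26.7% of all genes tested were called lower and 28.0% higher. The summed score of 12 fibroblast markers was 21096 to 27904 in OB and 38483 to 49133 in ODR at day 14. Of the 12, 1 was called higher and 4 lower in OB, with a median log2 fold change of -0.77, and none was at 0. Genes with the highest scores weigh most in such a sum, among them Postn, at 18690 in each ODR library and 1974, 5091 and 5626 in OB. The sum of 12 stem cell markers was 328 to 399 in OB and 9 to 11 in ODR, with 3 of the 4 that were tested called higher. Most of it was Sall4, at 346, 330 and 292 in OB, and the other 11 markers summed to 36 to 53 in OB and 5 to 9 in ODR. Zfp42 did not exceed 2 and Dppa4 and Tcl1 were 0 in OB. Of the 13 macrophage and leukocyte markers tested, 1 was higher and 2 lower, both smaller shares than over all genes. Their sum over 16 genes was 26 to 51 in OB and 47 to 98 in ODR, and in OB Tyrobp, Fcer1g, C1qa, C1qc and Cd3e were among those at 0. The sum of 10 stress genes was 2085 to 2489 in OB and 2248 to 2975 in ODR. The part of these differences in the lower interferon-stimulated genes was not tested.

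At day 6, 14 of the 41 members were lower in OB than in ODR and 0 higher, while limma called 4.81% of all genes tested lower and 5.74% higher. The members' median log2 fold change was -0.86 and that of all genes -0.01. Rtp4 (chromosome 16, 23520291 to 23614222), a chaperone of G protein-coupled receptors that is induced by interferon, was 100 and 129 in ODR and 24, 24, 18 and 13 in OB, a fall by 2.50 ± 0.41 (limma adjusted p = 0.000725). Xaf1, a pro-apoptotic protein, was 164 and 283 against 66, 48, 42 and 48 (-2.08 ± 0.40, limma adjusted p = 0.00255). Ifit1 was 58 and 112 against 12, 18, 12 and 7 (-2.69 ± 0.56, limma adjusted p = 0.00522). In these 3 genes each OB library was below both ODR libraries, and the ODR libraries themselves stood well apart for Xaf1 and Ifit1.

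Gbp2 (-1.74 ± 0.38, limma adjusted p = 0.00616), Isg15 (-2.35 ± 0.51, limma adjusted p = 0.00647) and Oasl2 (-2.01 ± 0.50, limma adjusted p = 0.0141) were lower at day 6. Isg15 was 120 and 207 in ODR and 38, 28, 31 and 25 in OB. Of the sensors, Tlr3 was 88 and 108 against 57, 62, 54 and 51 (-0.79 ± 0.18, limma adjusted p = 0.00958), and Ifih1 and Ddx58 fell by 1.33 ± 0.32 and 0.83 ± 0.20 (limma adjusted p = 0.0113 and 0.0146). Dhx58 was not called, at 21 and 34 against 14, 18, 13 and 17. Irf7 fell by 1.53 ± 0.41 and Irf9 by 0.61 ± 0.17 (limma adjusted p = 0.0227 and 0.0279), while Stat2 changed by -0.69 ± 0.30 (limma adjusted p = 0.175). Groups did not overlap for any of these 10 genes, and 18.6% of all genes were lower in OB with no overlap.

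This day 6 result rests on few ODR libraries. Without ODR day 6 replicate 2, in which Isg15, Ifit1 and Xaf1 had their highest values of all 35 columns, 1 member was called, and without replicate 1 it was 9. When the shared column was kept as an ODR library, 15 were called. Its Isg15 value was 115 and its Ifit1 value 47, above every OB library of day 6 without BMP4. Summed macrophage and leukocyte markers were 268 to 552 in ODR and 331 to 563 in OB at day 6, with 0 of 13 called.

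At day 1 limma called 2 members lower in OB than in ODR, Rsad2 and Tlr3, and 0 higher, with 0.238% of all genes tested called lower and 0.642% higher. Rsad2 was 7 and 5 in ODR and 1 and 0 in OB (-2.29 ± 0.52, limma adjusted p = 0.0417), values too low for a firm fold change. Tlr3 was 84 and 83 against 50 and 37 (-0.94 ± 0.21, limma adjusted p = 0.0417). Both calls were lost when any 1 of the 4 libraries was left out, with 0 members called in each such fit. The other sensors and factors were not called, among them Ddx58 at 502 and 300 against 218 and 236 and Irf7 at 66 and 42 against 40 and 18. Across the days, 1 member (Tlr3) was called lower at all 3 days, 12 at days 6 and 14, and 18 at day 14 alone.

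**Figure D4:**
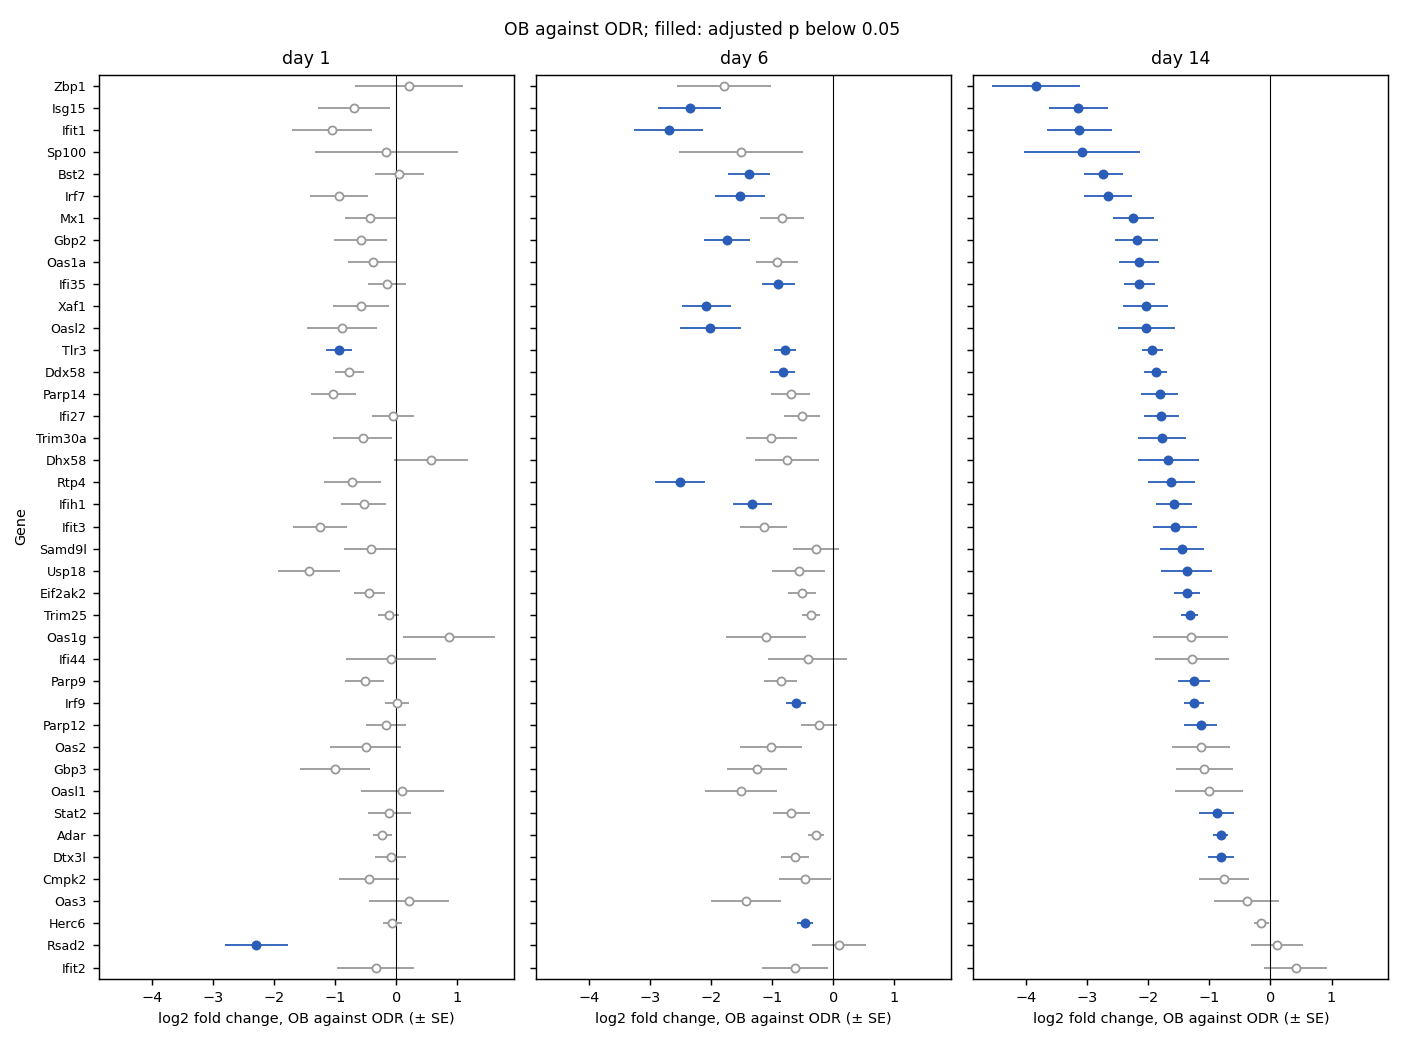
Log2 fold change of OB against ODR ± SE (horizontal axis) for the 41 tested genes (vertical axis) at days 1, 6 and 14. Filled points have a limma adjusted p below 0.05: 2 genes at day 1, 14 at day 6 and 31 at day 14, all of them lower in OB.

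Between OA and ODR at day 14, limma called 0 members, beside 6 at an unadjusted p below 0.05, 2.53% of all genes called lower and 2.82% called higher, and the median log2 fold change of the members was -0.17. The count was again 0 when replicate 2 of OA, the library with low Kdm2a, was left out. Ddx58 in OA was 488, 684 and 502, beside 524, 514 and 557 in ODR, a difference of 0.05 ± 0.19 (limma adjusted p = 0.932). Irf7 was 43, 92 and 84 and differed by -0.05 ± 0.39 (limma adjusted p = 0.97). Tlr3 and Irf9 differed by -0.21 ± 0.17 and -0.17 ± 0.16. In the library labelled replicate 2, Lum was 131 where the other OA libraries had 2354 and 1857, and Coro1a was 240 where they had 1 and 3. There Sp100 was 4 where the other OA libraries had 194 and 266, and Ifit2 was 3 where they had 20 and 21. Without OA day 14 replicate 3, 3 members were called lower than in ODR.

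Set against OA at day 14, OB had 32 members called lower and 0 higher, with 25.2% of all genes tested called lower and 26.5% higher, and the same count of 32 without the library labelled OA day 14 replicate 2. This comparison shares the OB libraries with the comparison against ODR. Trim25 was 300, 442 and 444 in OA and changed by -1.44 ± 0.14 in OB (limma adjusted p = 3.74e-07), Ddx58 by -1.93 ± 0.19 (limma adjusted p = 4.46e-07) and Tlr3 by -1.72 ± 0.17 (limma adjusted p = 4.87e-07). Bst2 in OA was 272, 627 and 308, all above the OB values given earlier, and Trim30a, a member of the TRIM family, was 40, 18 and 38 in OA and 3, 5 and 4 in OB (-2.66 ± 0.39, limma adjusted p = 2.36e-05). Irf7 and Irf9 fell by 2.61 ± 0.39 and 1.08 ± 0.16, Ifih1 by 1.11 ± 0.30 and Stat2 by 0.71 ± 0.29 (limma adjusted p = 2.34e-05, 2.51e-05, 0.00462 and 0.0451). Dhx58, at 17, 11 and 24 in OA, was called (-1.46 ± 0.49, limma adjusted p = 0.0195) although its libraries overlapped with OB. Single calls here were fragile for Stat2, lost without the filter, in a fit of only these groups and without OA replicate 1 or 3 or OB replicate 2 or 3 (limma adjusted p from 0.0593 to 0.177). That of Dhx58 was lost in the fit of only these groups and without OA replicate 3 or OB replicate 2 or 3 (limma adjusted p from 0.0691 to 0.0957).

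At day 6 only Rtp4 was called between OA and ODR, at 44, 22 and 28 in OA (-1.88 ± 0.43, limma adjusted p = 0.0284), beside 0.880% of all genes called lower and 1.34% higher. It was lost in the fits without either ODR library and without OA replicate 2 or 3, each with 0 members called. Between OB and OA at day 6, 5 members were lower in OB, with 3.35% of all genes called lower and 3.92% higher. They were Tlr3 (94, 91 and 109 in OA), Trim30a (37, 26 and 30 in OA against 10, 9, 18 and 6 in OB), Gbp2, Oas3 and Oas2. Their log2 fold changes ran from -0.80 for Tlr3 to -1.93 for Oas3, whose values did not exceed 12. The count fell to 1 without OA replicate 1, to 2 without OA replicate 2 or OB replicate 1 and to 3 without OA replicate 3 or OB replicate 3.

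At day 1, 0 members were called between OA and ODR and 10 had an unadjusted p below 0.05, with 0.0289% of all genes called higher and 0.0361% lower. In that comparison 34 of 41 fold changes were above 0, with a median of 0.45, and OA day 1 replicate 1 was the higher of its pair for most members, for example at 98 against 46 for Isg15 and 34 against 7 for Dhx58. OB was lower than OA for 2 members, with 0.390% of all genes called lower and 1.01% higher. These were Tlr3, at 129 and 114 against 50 and 37 (-1.47 ± 0.21, limma adjusted p = 0.00155), and Irf7, at 170 and 85 against 40 and 18 (-2.12 ± 0.47, limma adjusted p = 0.0297). The count was 1 without OA replicate 1 or either OB replicate.

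With BMP4 at day 6, 12 of 41 members were higher in OB and 16 lower in ODR. In OB, limma called 12 members higher with BMP4 and 0 lower, against 15.0% of all genes called higher and 17.5% lower, with a median log2 fold change of 0.49 and 8 of 41 fold changes below 0. Trim25 was 354, 366, 373 and 339 without BMP4 and 675 and 772 with it, a rise of 1.01 ± 0.15 (limma adjusted p = 6.98e-05). Rtp4 went from 24, 24, 18 and 13 to 66 and 90 (1.95 ± 0.41, limma adjusted p = 0.00138), and Isg15 from 38, 28, 31 and 25 to 72 and 172 (1.85 ± 0.51, limma adjusted p = 0.01). All libraries with BMP4 were above all those without it in these genes, and replicate 2 with BMP4 was the higher of the pair.

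Rsad2 rose to 18 and 41 from 11, 10, 14 and 5 (1.44 ± 0.45, limma adjusted p = 0.02). Bst2 was 418 and 876 with BMP4 and 255, 312, 314 and 259 without it (1.09 ± 0.34, limma adjusted p = 0.0213). Parp9 rose by 0.87 ± 0.27, Ifit3 by 1.17 ± 0.38 and Oas1a by 1.05 ± 0.35 (limma adjusted p = 0.0208, 0.0251 and 0.0276), and Herc6, Ifit1, Oasl1 and Xaf1 complete the 12. None of the 4 sensors and 3 transcription factors was called. Irf7 was 114 and 210 with BMP4 and 85, 99, 82 and 64 without it (0.92 ± 0.41, limma adjusted p = 0.0969), while Tlr3 was 52 and 33 against 57, 62, 54 and 51 (-0.42 ± 0.18, limma adjusted p = 0.0892). The count fell to 2 without OB with BMP4 replicate 2 and to 5 without OB day 6 replicate 4, and only 1 library with BMP4 was left in the first of these fits.

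In ODR, 16 members were lower with BMP4 and 0 higher, where limma called 6.46% of all genes lower and 5.06% higher, but this rests on 1 library with BMP4 against 2 without it. Oasl2, an oligoadenylate synthetase-like protein, was 95 and 226 without BMP4 and 8 with it (-4.04 ± 0.70, limma adjusted p = 0.00141). Mx1 was 41 and 33 against 4 (-2.92 ± 0.51, limma adjusted p = 0.00145). Dhx58 was 21 and 34 without BMP4 and listed at 0 with it (limma adjusted p = 0.00067). These were the lowest values of Dhx58 and Mx1 at day 6.

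Ddx58 was 726 and 785 without BMP4 and 250 with it (-1.59 ± 0.29, limma adjusted p = 0.00196), and Irf7 was 199 and 282 against 29 (-2.99 ± 0.58, limma adjusted p = 0.00301). Irf9 fell from 388 and 410 to 180 (-1.14 ± 0.24, limma adjusted p = 0.00532). Xaf1 was 34 with BMP4 (-2.63 ± 0.56, limma adjusted p = 0.00558), and Rtp4 was 19 (-2.52 ± 0.58, limma adjusted p = 0.00868). Ifih1 fell by 1.92 ± 0.45 (limma adjusted p = 0.00982), while Tlr3 (61 against 88 and 108) and Stat2 (366 against 712 and 607) were not called. The lone library was below both libraries without BMP4 for 40 of the 41 members, and 37.3% of all genes did not overlap in that direction.

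Where the shared column was kept under its label with BMP4, 0 members were called. Under its label without BMP4, 14 were, and a fit of only these groups called 0. In the shared column Ddx58 was 522, Irf7 186 and Mx1 21. Without ODR day 6 replicate 2 the count was 6. Fibroblast markers in the shared column were near the ODR libraries without BMP4. Lum was 597 in it, 608 and 906 without BMP4 and 82 with it, Dcn was 764, beside 670 and 1187 and 144, and Col1a2 was 6250, beside 3178 and 7101 and 548. Coro1a was 0 in it, 2 and 4 without BMP4 and 54 with it. These values go with the label without BMP4, under which 14 members were called.

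The difference between the BMP4 effects in OB and ODR was a comparison chosen after the data were seen. Limma called 12 members, all with a higher effect in OB, with 0.714% of all genes called higher and 0.541% lower. The fold changes of all 41 members lay on that side of 0, with a median of 2.01. Rtp4 (4.47 ± 0.71, limma adjusted p = 0.00414), Oasl2 (4.94 ± 0.86, limma adjusted p = 0.00698), Trim25 (1.47 ± 0.26, limma adjusted p = 0.00698), Ddx58 (2.01 ± 0.35, limma adjusted p = 0.00719) and Irf7 (3.90 ± 0.71, limma adjusted p = 0.0091) had the smallest adjusted p. The count was 1 without OB with BMP4 replicate 2, 4 without ODR day 6 replicate 2, and 2 with the shared column kept under its label with BMP4.

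**Figure D5:**
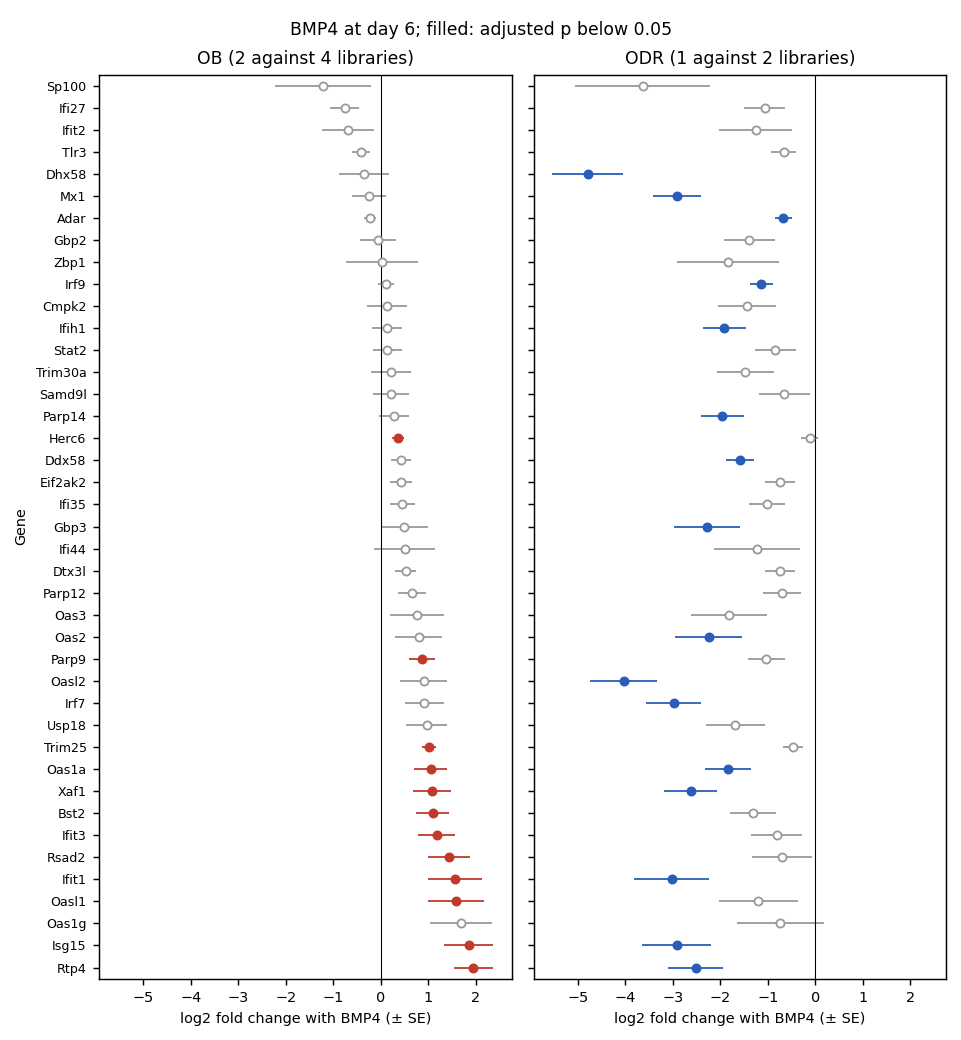
Log2 fold change with BMP4 ± SE (horizontal axis) at day 6 for the 41 tested genes (vertical axis) in OB (2 against 4 libraries) and ODR (1 against 2 libraries). Filled points have a limma adjusted p below 0.05: 12 genes higher in OB and 16 lower in ODR.

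Of other gene groups in the same libraries, fibroblast markers moved with BMP4. In OB, 15.0% of all genes tested were called higher with BMP4 and 17.5% lower. The summed fibroblast markers were 25624 to 26650 in OB with BMP4 and 40590 to 43540 without it, with 2 of 12 higher and 7 lower, and 26219 in ODR with BMP4 against 35731 to 45296. None of the 12 was at 0. The summed macrophage and leukocyte markers were 639 to 668 in OB with BMP4 and 331 to 563 without it. Of 13 tested, 1 was higher (Coro1a, at 316 and 327 against 2 to 4) and 1 lower (Cd68), smaller shares than over all genes. The higher sum rests on Coro1a, and the median log2 fold change of the 13 was -0.18. Aif1 and Cd3e were among those at 0 in OB with BMP4. In ODR the sum was 584 with BMP4 and 268 to 552 without it, with 0 higher and 1 lower. Kdm2b was 9306 and 18690 in the OB libraries with BMP4. Their part in the BMP4 results was not tested.

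Over time, 28 of 41 members rose from day 1 to day 6 in ODR and fewer in OA and OB, and 30 fell from day 6 to day 14 in OB. Comparisons with day 6 were added after the data were seen, and comparisons of 1 combination share libraries with each other. From day 1 to day 6, 28 members rose in ODR (12.6% of all genes called higher), 12 in OA (17.0%) and 19 in OB (16.7%). By limma 0 fell in any of them, beside 12.5%, 17.6% and 17.1% of all genes. The median log2 fold change of the members was 1.44, 0.55 and 0.90.

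Oasl2 went from 18 and 9 to 95 and 226 in ODR (3.42 ± 0.57, limma adjusted p = 0.000294). Parp14, a mono-ADP-ribosyltransferase, went from 29 and 19 to 101 and 124 (limma adjusted p = 0.000297). Bst2 rose from 175 and 122 to 638 and 850 (2.33 ± 0.40, limma adjusted p = 0.000352). These day 6 libraries were all above the day 1 libraries.

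The transcription factors rose in ODR, Irf9 by 1.13 ± 0.20, Irf7 by 2.15 ± 0.47 and Stat2 by 1.32 ± 0.35 (limma adjusted p = 0.000418, 0.00288 and 0.00998). Of the sensors, Dhx58 and Ddx58 rose by 2.47 ± 0.61 and 0.96 ± 0.24 (limma adjusted p = 0.00599 and 0.00625), and Ifih1 and Tlr3 were not called. In OB, Parp14 rose by 2.54 ± 0.32, Usp18 by 2.97 ± 0.44 and Rsad2 by 2.88 ± 0.45 (limma adjusted p = 1.13e-05, 5.89e-05 and 9.28e-05). Usp18 was 20 and 10 at day 1 and 90, 134, 155 and 104 at day 6. In OA, Parp14, Trim30a and Cmpk2, a mitochondrial nucleotide kinase, rose by 2.05 ± 0.34, 2.58 ± 0.44 and 2.54 ± 0.45 (limma adjusted p = 0.000154, 0.000223 and 0.000316). Counts depended on day 1 libraries: 15 in ODR without replicate 2, 4 in OA without replicate 2, where the median was 0.06, and 9 in OB without replicate 2 of that day. In OA, 6 were called without day 6 replicate 1.

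Between days 6 and 14, OB had 30 members lower and 0 higher, against 28.2% of all genes called lower and 26.8% higher, with a median of -1.13. Trim25 changed by -1.32 ± 0.13, Ddx58 by -1.56 ± 0.18 and Tlr3 by -1.35 ± 0.16 (limma adjusted p = 2.81e-07, 1.38e-06 and 2.15e-06). Irf7 went from 85, 99, 82 and 64 to 9, 13 and 10 (-2.84 ± 0.36, limma adjusted p = 3.94e-06). In the same interval, 9 of 13 macrophage and leukocyte markers were lower and 0 higher, their sum going from between 331 and 563 to between 26 and 51. Their part in the fall was not tested. In ODR, where that sum went from between 268 and 552 to between 47 and 98, Irf7 (-1.71 ± 0.43, limma adjusted p = 0.0329) and Herc6 (-0.51 ± 0.14, limma adjusted p = 0.0447) were the only members called, with 1.68% of all genes called lower and 2.27% higher. Neither was called without ODR day 6 replicate 2 or without ODR day 14 replicate 1 or 2, and 1 was without ODR day 6 replicate 1 or ODR day 14 replicate 3. In OA, 0 were called and 7 had an unadjusted p below 0.05, beside 4.08% of all genes called lower and 4.05% higher. Without OA day 14 replicate 3, 2 were called lower, and without the library labelled replicate 2, 0.

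Over the whole course, from day 1 to day 14, 20 members rose and 0 fell in ODR, with 18.7% of all genes called higher and 23.1% lower. OA had 9 higher and 4 lower, with 18.6% and 21.8% of all genes, and OB had 4 higher and 13 lower, with 25.8% and 25.2%. In ODR, Samd9l, a virus restriction factor, went from 64 and 32 to 281, 287 and 206 (2.47 ± 0.40, limma adjusted p = 8.36e-05), and Zbp1 from 2 and 0 to 35, 34 and 54 (4.57 ± 0.81, limma adjusted p = 0.000208). In OB, Trim25 went from 379 and 370 to 134, 168 and 130 (-1.38 ± 0.16, limma adjusted p = 1.39e-06), and Rsad2 from 1 and 0 to 8, 6 and 4 (2.27 ± 0.47, limma adjusted p = 0.000643). In OA, Parp14 rose by 2.01 ± 0.34 and Tlr3 fell by 0.73 ± 0.19 (limma adjusted p = 0.00014 and 0.0061).

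The change from day 1 to day 14 differed between OB and ODR for 17 members, 16 with a lower change in OB (16.5% of all genes called) and 1, Rsad2, with a higher one (17.9%). Bst2 (-2.78 ± 0.51, limma adjusted p = 0.000526), Trim25 (-1.19 ± 0.22, limma adjusted p = 0.000572), Ifi35 (-1.99 ± 0.40, limma adjusted p = 0.00101) and Irf9 (-1.26 ± 0.25, limma adjusted p = 0.00106) had the smallest adjusted p. Bst2 rose in ODR from 175 and 122 at day 1 to 428, 510 and 622 at day 14, and fell in OB from 166 and 138 to 51, 101 and 87. Day 1 libraries weighed on these counts. Without ODR day 1 replicate 2, the counts were 9 for ODR over the course and 8 for the difference. Without OB day 1 replicate 1, OB had 7 called, 4 higher and 3 lower, so that lower calls no longer outnumbered higher ones, and the difference had 11. Without OB day 1 replicate 2, OB had 9, 1 higher and 8 lower. Without OA day 1 replicate 2, 7 were called in OA, and without the library labelled OA day 14 replicate 2, 12.

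Within groups, members went up and down together from library to library. After the group means were removed from the 26 libraries of groups with more than 1, the median pairwise Pearson correlation among the 41 members was 0.373, and among all genes tested it was 0.000507. Of the member pairs, 89.1% had a correlation above 0, beside 50.1% of all pairs. These are descriptions only. The labels do not say whether libraries share preparation, and in groups of 2 libraries the deviations are equal and opposite. Ifit1 followed the mean of the other members most closely (0.870), then Parp9 (0.851), Isg15 (0.843) and Irf7 (0.825), and Tlr3 least (-0.135). Members also spread more within groups than all genes tested, with a median residual SD of 0.459 on the log2 scale against 0.252. Levels were not matched between members and all genes, and the part of low values in this difference was not tested. Adar and Herc6 had the smallest spread (0.141 each) and Sp100 the largest (1.23). In OA at day 14 Sp100 was 194, 4 and 266, the 4 being in the library labelled replicate 2, where Kdm2a was low.

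The high libraries were high for most members at once. OA day 1 replicate 1 lay above its group mean for 38 of 41 members, OB with BMP4 replicate 2 for 38, ODR day 6 replicate 2 for 36 and ODR day 14 replicate 3 for 36, while the share of all genes above the group mean lay between 43.4% and 48.2% in these 4 libraries. In ODR day 14 replicate 3, Isg15 was 148 where the other libraries had 38 and 59. In OB at day 14, replicate 2 lay above the group mean for 31 members, with Isg15 at 11 against 6 and 5.

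Other genes of the interferon pathway were taken from lists chosen with earlier results of these data known. The interferons themselves were at or near 0. Ifnb1 did not exceed 2 in any of the 35 columns, Ifng did not exceed 1, and Ifna1, Ifna4 and Ifna5 were listed at 0 throughout. The receptor chain Ifnar1 was 638, 597 and 548 in ODR at day 14 and 423, 454 and 456 in OB, a fall by 0.42 ± 0.09 (limma adjusted p = 0.000803). Ifnar2 was 221, 226 and 220 against 158, 128 and 156 (-0.60 ± 0.09, limma adjusted p = 1.45e-05). At day 6 neither chain was called between OB and ODR, with differences of -0.00 ± 0.10 and -0.12 ± 0.09.

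Irf1, a factor induced strongly by interferon gamma, was 129, 140 and 176 in ODR at day 14 and 76, 62 and 71 in OB (-1.07 ± 0.33, limma adjusted p = 0.0104). At day 6 it was not called (-1.02 ± 0.35, limma adjusted p = 0.0731). Of the 20 ligands, receptors and signalling genes tested, 4 were higher and 14 lower in OB at day 14, beside 28.0% and 26.7% of all genes. The kinase Jak1 (-0.76 ± 0.10) and Irf2 (-1.20 ± 0.15) were among the lower and the phosphatase Ptpn6 (3.20 ± 0.31) among the higher. Ptpn6 was 3, 2 and 3 in ODR, 51, 30 and 22 in OB and 270 in the mESC library.

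Antigen presentation genes, which interferons also induce, were lower in OB at day 14 for 13 of 14 tested and higher for 0. Their median was -1.54, and of all genes 26.7% were called lower and 28.0% higher. Tap2, a peptide transporter, was 262, 298 and 260 in ODR and 25, 38 and 51 in OB (-2.87 ± 0.20, limma adjusted p = 7.21e-09). Psmb8, an immunoproteasome subunit, was 156, 199 and 191 against 17, 32 and 23 (-2.91 ± 0.24, limma adjusted p = 4.42e-08). H2-K1, a class I heavy chain, was 2536, 3172 and 2286 against 831, 1036 and 960 (-1.49 ± 0.13, limma adjusted p = 5.68e-08). No OB library of these 3 came near ODR.

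With BMP4 at day 6, Tap2 fell both in OB, to 36 and 35 from between 80 and 115, and in ODR, to 64 from 181 and 212 (limma adjusted p = 8.89e-05 and 0.00219). In OB, 5 of 14 antigen presentation genes were lower with BMP4 and 0 higher, where 12 of the 41 interferon-stimulated genes were higher. Of all genes, 17.5% were called lower and 15.0% higher there. Among 39 other interferon-inducible genes tested, 3 were higher and 26 lower in OB at day 14, beside 28.0% and 26.7% of all genes. Irgm1, an immunity-related GTPase, was 242, 240 and 289 in ODR and 63, 77 and 55 in OB (-1.97 ± 0.17, limma adjusted p = 6.61e-08). Ifitm1, which blocks viral entry and is also high in stem cells, went the other way, from 10, 10 and 10 to 238, 321 and 291 (4.68 ± 0.33, limma adjusted p = 9.08e-09), and was 416 in the mESC library. Of 22 sensing adaptors and kinases tested, 3 were higher and 13 lower at day 14, beside the same shares of all genes. The ligase Trim56 (-1.11 ± 0.08) and the NF-kappa-B subunit Rela (-1.14 ± 0.10) were among the lower. The nucleotide hydrolase Samhd1 (1.21 ± 0.18) was among the higher.

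The unreplicated libraries allow description only. Between mESC and MEF, 12 members were at least 2-fold higher in mESC and 13 at least 2-fold lower, with 23.1% and 27.7% of all genes tested. The oligoadenylate synthetases were on the higher side, Oas1a at 252 in mESC and 11 in MEF and Oas2 at 39 and 2, while Oas1g (88), Oas3 (10) and Oasl1 (25), like Zbp1, were listed at 0 in MEF. Sensors were on the lower side, Ddx58 at 92 and 270, Ifih1 at 25 and 67 and Tlr3 at 3 and 47. Irf7 was 8 in both. All 3 OB libraries of day 14 were above the MEF library for 11 members and below it for 19, beside 42.8% and 38.7% of all genes. Those of ODR at day 14 were above it for 33 and below it for 5, beside 38.4% and 41.1% of all genes.

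At day 9, ODB differed from ODDR by at least 2-fold for 3 members upward and 5 downward, with 11.2% and 12.0% of all genes. Gbp2 was 186 in ODDR and 48 in ODB, and Zbp1 58 and 6, whereas Rsad2 was 7 and 27. Isg15 was 120 and 92. The column shared by both labels with BMP4 had 18 members at least 2-fold lower than ODDR without BMP4 and 0 higher, with 10.5% and 9.46% of all genes, among them Isg15 at 16, Oasl2 at 16 against 92 and Irf7 at 44 against 124. Kdm2b was 239 in that column and 18690 in ODB without BMP4, so it goes against the ODB label, and no direction for ODB is drawn from it.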

How the data were processed

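Poly-A RNA was sequenced in 35 libraries. Per the submitters' processing notes, bcl2fastq, Bowtie2 2.2.5 and RSEM were used with the mm10 build. The authors deposited 1 table of whole-number values, called here a normalized tag count score. The sources used here do not give how these scores were normalized, so no count model was run.

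Scores were analysed as log2(value + 1) with limma 3.58.1 in R 4.3.3. Genes at 10 or more in at least 2 of the 27 fitted libraries were kept (13860). One linear model over 11 groups (16 residual degrees of freedom) gave 22 comparisons, 7 of them added after the data were seen, with Benjamini-Hochberg adjustment over all genes tested and a threshold of 0.05. Both columns of each identical pair were left out of the fit. Gene positions come from GENCODE and promoters from RefSeq. Tables were handled with pandas 2.3.3. The fit was tested on simulated data.

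The members and gene lists were chosen with earlier results of these data known. Full statistics went to at most 8 called members with the smallest adjusted p in each comparison, the RNA sensors and the transcription factors. In other lists they went to at most 4 called genes and to Irf1, Ifnb1, Ifnar1 and Ifnar2, and some items are not reported here. Further members are named with their values. Alternatives were the pseudocount, the filter, limma's trend and robust options, median centring, fits of only the groups compared, a replicate block, the identical columns kept under either label, and leaving out each library.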

Additional observations from a re-analysis of the deposited data

Results flagged for a closer look

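Each of the 42 members was examined in OB at day 6, the only group of 4 libraries. For 2 of them, 1 library stood far from the others, where chance gives about 1 in 20. All 42 share the same libraries, so they are not separate cases. Zbp1 in OB at day 6 was 19 in replicate 2, where the others had 7, 5 and 7. Gbp3, another guanylate-binding protein, was 25 in replicate 1 of the same group, where the others had 14, 13 and 12.

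The change from day 1 to day 14 differed between OB and ODR in a test of the difference itself with limma. The difference in log2 fold change, OB minus ODR, was -4.04 for Zbp1, -2.78 for Bst2, -2.45 for Isg15, -2.24 for Dhx58 and -1.99 for Ifi35. It was -1.82 for Mx1, -1.77 for Oas1a, -1.73 for Ifi27, -1.71 for Irf7 and -1.60 for Gbp2. Smaller differences were found for Irf9 (-1.26), Trim25 (-1.19), Ddx58 (-1.11), Tlr3 (-0.99), Eif2ak2 (-0.92), the RNA-activated kinase PKR, and Adar (-0.59). Rsad2 differed the other way, by 2.40, from day 1 levels in OB of 1 and 0.

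The effect of BMP4 at day 6 differed between OB and ODR in the same kind of test, with 1 ODR library with BMP4. The difference was 4.94 for Oasl2, 4.77 for Isg15, 4.60 for Ifit1, 4.47 for Rtp4 and 3.90 for Irf7. It was 3.70 for Xaf1, 2.89 for Oas1a, 2.67 for Mx1, 2.01 for Ddx58, 1.47 for Trim25 and 1.25 for Irf9. For Dhx58 it was 4.43, a value that rests on the 1 added before the log, since that library lists the gene at 0.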

How the results depend on the processing

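Higher and lower calls changed order in 1 comparison, OB from day 1 to 14, which had 4 higher and 13 lower calls and, without OB day 1 replicate 1, 7 in all (4 higher, 3 lower). OB against ODR had 31 to 33 calls at day 14 and 13 to 18 at day 6 under alternatives that leave no library out. At day 6, Ifih1 and Oasl2 were lost in the fit of only these groups and Tlr3 with the replicate block (limma adjusted p = 0.0545, 0.0572 and 0.0571). With a pseudocount of 10, counts were 1 for OB against ODR at day 1, 2 for OA against ODR at day 6, 8 for OB against OA at day 6, 5 for ODR from day 6 to 14 and 1 for OA from day 6 to 14. With limma's trend and robust options they were 0 for OB against ODR at day 1, 1 for OA against ODR at day 14, 8 for OB against OA at day 6 and 1 for ODR from day 6 to 14. Without the filter on low values, ODR from day 6 to 14 had 1. Fits of only the groups compared gave 0 for OB against ODR at day 1, OA against ODR at day 6, OB against OA at day 1, BMP4 in ODR and ODR from day 6 to 14. They gave 11 for OB against OA at day 6, 2 for OA from day 1 to 14 and 10 for ODR from day 1 to 6. Keeping the identical column with BMP4 gave 0 for BMP4 in ODR and 2 for the difference of BMP4 effects, and keeping it without BMP4 gave 1 for ODR from day 6 to 14. The cause of these shifts was not tested.

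With the replicate number as a block, 1 member was called for OB against ODR at day 1, 1 (higher) for OA against ODR at day 14 and 5 for OB against OA at day 1. For OB and ODR at day 14, same-numbered libraries deviated together over all genes tested, with correlations of 0.156, 0.0872 and 0.168. Between different numbers the highest was -0.0116. OA and ODR at day 14 did so too, at 0.0887, 0.0345 and 0.112 against at most 0.0106. The 3 pairs of day 1 groups gave 0.204, 0.222 and 0.235 for same-numbered libraries. Day 6 pairs with 2 shared numbers were mixed, from -0.163 to 0.0431. Other groups with 3 shared numbers did not all do so. Number 2 of OA and OB at day 14 gave 0.0318 against 0.139, and number 3 of OA and OB at day 6 gave 0.0620 against 0.215. The labels name no batch, so the numbers were not taken as pairs in the main fit, and a shared origin of same-numbered libraries was not tested.

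With 1 library left out, counts ranged as follows. OB against ODR had 0 at day 1, 1 to 13 at day 6 and 29 to 35 at day 14. OA against ODR had 0 at day 1, 0 to 1 at day 6 and 0 to 3 at day 14. OB against OA had 1 to 3, 1 to 5 and 26 to 32 at the 3 days. BMP4 gave 2 to 10 in OB, 6 to 15 in ODR and 1 to 11 for their difference. From day 1 to 14 there were 9 to 22 in ODR, 7 to 14 in OA, 7 to 17 in OB and 8 to 19 for the OB and ODR difference. From day 1 to 6 there were 15 to 26 in ODR, 4 to 16 in OA and 9 to 19 in OB. From day 6 to 14 there were 0 to 1 in ODR, 0 to 2 in OA and 24 to 31 in OB. Leaving out the lone ODR library with BMP4 gives no value. Of 152 named calls of single genes, 67 were called under every alternative run, 85 were lost under at least 1, and 0 reversed. Depth is unknown, and members below about 10 have little precision.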
